A study of Saccharomyces cerevisiae with 10 samples.

Results

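The genes described here are the 32 genes of proteasome subunits named PRE, PUP, SCL1, RPT and RPN, and RPN4, the gene of their shared transcriptional activator. They were chosen by systematic name, a rule that uses no measured value, and make up 33 of the 7218 targets quantified in budding yeast (Saccharomyces cerevisiae). RNA-seq was done on 10 libraries of diploid BY4743 cells, 2 in each of 5 groups, taken in mid-logarithmic growth in YPD, a rich medium. The groups were [ESI+] cells, homozygous hos2 deletion cells, homozygous set3 deletion cells, homozygous snt1 deletion cells and naive cells. [ESI+] is a heritable, protein-based state that involves Snt1. HOS2, SET3 and SNT1 encode members of the Set3C histone deacetylase complex: Hos2 is a deacetylase, and Set3 and Snt1 help to hold the complex together. The labels do not say whether the 2 libraries of a group came from separate cultures, so the p-values measure the spread between these libraries, which may be technical.

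The proteasome degrades proteins that carry ubiquitin chains. Its barrel-shaped core particle is a stack of alpha and beta rings, with the protease sites inside, and its regulatory particle has a base of RPT ATPases and large RPN scaffolds that unfold substrates, and a lid of RPN subunits that removes ubiquitin. Each subunit is needed in a fixed proportion, and Rpn4 binds an element upstream of most of the genes; Rpn4 is itself degraded quickly by the proteasome, which closes a feedback loop.

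The element bound by Rpn4, known as the proteasome-associated control element, was searched for by its letters GGTGGCAAA on both strands in the 300 bases before each start codon of the R64 genome. It was found upstream of 27 of the 33 genes (81.8%), and upstream of 72 of all 5993 such windows (1.20%). By role, 12 of 14 core particle genes, 6 of 6 RPT genes and 9 of 12 RPN genes held it. Each of the 27 windows had 1 match, 19 on the strand of the gene and 8 on the other, with the first base between 84 and 183 bases before the start codon (median 120). PRE5, PUP1, RPN8, RPN10, RPN13 and RPN4 had no match; with the first letter free, 30 of 33 genes and 158 of 5993 windows (2.64%) matched, and PRE5, PUP1 and RPN8 were the 3 added. A match of letters is a description of the window and not a measured binding site. The windows of 4 genes that return in the comparisons below are shown from the R64 reference of RefSeq, 5′ to 3′ on the strand of the gene, with the element in capitals (TTTGCCACC is the element on the other strand).
RPN9, chrIV:1321905-1322204, strand +: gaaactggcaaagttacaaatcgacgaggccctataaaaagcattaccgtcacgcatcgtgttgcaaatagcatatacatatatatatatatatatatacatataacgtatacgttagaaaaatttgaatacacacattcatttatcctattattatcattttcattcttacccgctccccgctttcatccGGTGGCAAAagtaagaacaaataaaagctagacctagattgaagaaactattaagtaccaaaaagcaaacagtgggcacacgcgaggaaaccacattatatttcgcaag
RPN5, chrIV:190624-190923, strand +: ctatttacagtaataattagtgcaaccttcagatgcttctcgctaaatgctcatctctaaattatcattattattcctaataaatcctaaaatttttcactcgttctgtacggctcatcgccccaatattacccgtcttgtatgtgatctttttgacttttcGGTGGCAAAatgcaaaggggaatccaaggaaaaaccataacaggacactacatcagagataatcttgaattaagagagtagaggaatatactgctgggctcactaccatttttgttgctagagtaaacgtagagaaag
RPN3, chrV:196648-196947, strand +: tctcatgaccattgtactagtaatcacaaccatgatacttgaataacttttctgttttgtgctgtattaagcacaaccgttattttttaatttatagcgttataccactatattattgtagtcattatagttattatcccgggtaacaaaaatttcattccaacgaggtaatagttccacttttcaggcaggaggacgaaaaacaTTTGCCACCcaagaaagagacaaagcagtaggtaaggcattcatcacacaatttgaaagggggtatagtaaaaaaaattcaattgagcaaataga
PRE6, chrXV:255037-255336, strand +: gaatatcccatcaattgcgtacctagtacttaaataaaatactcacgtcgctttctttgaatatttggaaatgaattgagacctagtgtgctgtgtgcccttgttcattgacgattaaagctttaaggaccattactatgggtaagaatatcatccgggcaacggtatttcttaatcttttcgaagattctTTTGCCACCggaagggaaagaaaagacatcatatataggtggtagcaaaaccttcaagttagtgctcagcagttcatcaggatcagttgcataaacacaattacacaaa

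**Figure D1:**
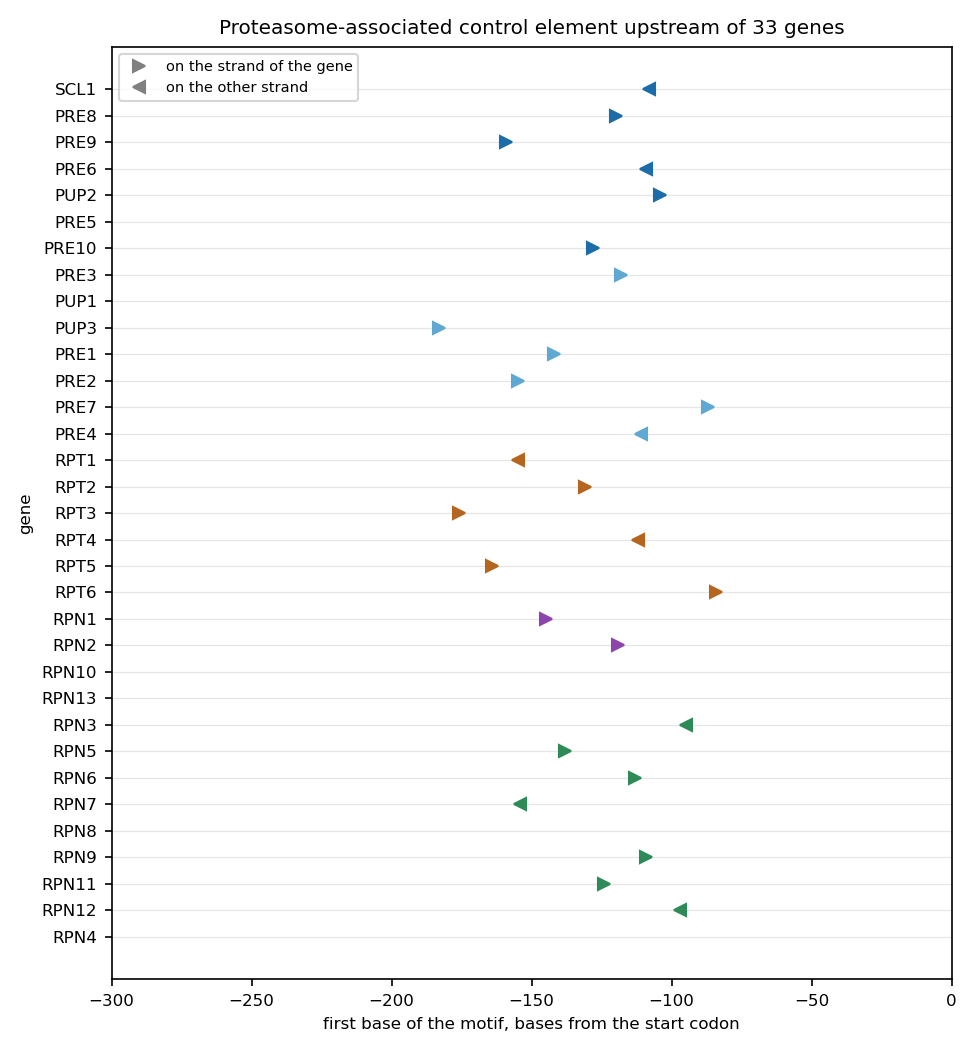
Position of GGTGGCAAA upstream of the 33 genes. Each triangle is the first base of a match, in bases from the start codon (x axis, 300 bases shown), pointing right on the strand of the gene and left on the other strand; rows without a triangle had no match. The 27 matches lie between 84 and 183 bases before the start codon.

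Library depth was between 8327735 and 80651761 estimated counts, and the 33 genes had between 155 and 29024 counts in a library. All 33 passed the filter on low counts, among 6390 genes tested. The deletions matched their labels: HOS2 differed by -7.40 (log2) in the hos2 deletion, SET3 by -7.47 in the set3 deletion and SNT1 by -7.90 in the snt1 deletion, each against naive cells. Genes that diploid cells repress (10 haploid-specific genes) summed to 24.7 and 41.3 TPM in [ESI+] libraries and to between 6.86 and 17.3 TPM in the other 8 libraries. Reads at genes that were silent elsewhere reached, at the median, 0.365 and 2.27 CPM per kb in [ESI+] libraries, against 0 to 0.0910 elsewhere. The replicates of naive cells and of snt1 deletion cells stood further apart than those of the other groups. Over the 33 genes the median absolute log2 difference between replicates was 0.15 in [ESI+], 0.12 in the hos2 deletion, 0.15 in the set3 deletion, 0.42 in the snt1 deletion and 0.31 in naive cells. In naive cells the log2 difference between replicate 2 and replicate 1 moved with the GC content of the coding sequence (r = 0.74 across 33 genes). For the same genes r was 0.57 in the hos2 deletion, 0.49 in the snt1 deletion, -0.26 in the set3 deletion and -0.0034 in [ESI+]. The trend was not particular to these genes. Over 3619 genes of at least 10 CPM, r was 0.50 in naive cells, 0.41 in the hos2 deletion and 0.26 in the snt1 deletion. It was -0.16 in the set3 deletion and -0.047 in [ESI+]. The replicate differences of the snt1 deletion and of naive cells also moved together (r = 0.77 across 33 genes, and 0.53 across 3716 genes of at least 10 CPM). Genes within a library are not independent replicates, and these r values are descriptions.

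Per length of transcript and in the mean over the 10 libraries, all core particle genes but PRE1 (YER012W) stood above all lid genes. The order did not hold in every library: SCL1 had 42.5 TPM and RPN11 60.7 TPM in the second snt1 deletion library. Levels across genes are given in TPM, transcripts-per-million as deposited, as mean ± SD over the 10 libraries. PUP3 (YER094C), a beta subunit without a protease site, was highest at 225 ± 20.0 TPM, and RPN9 (YDR427W), a lid subunit, was the lowest subunit gene at 28.1 ± 16.8 TPM. RPN4 (YDL020C) lay below all 32 subunit genes at 13.0 ± 4.50 TPM. Of the alpha ring, which gates entry to the barrel, PRE6 (YOL038W) had 151 ± 41.5 TPM, PRE10 (YOR362C) had 134 ± 16.0 TPM and PUP2 (YGR253C) had 120 ± 14.4 TPM. The other alpha genes were PRE5 (YMR314W) with 109 ± 21.5 TPM, SCL1 (YGL011C) with 102 ± 37.2 TPM, PRE8 (YML092C) with 91.9 ± 17.2 TPM and PRE9 (YGR135W), the alpha subunit that cells can do without, with 87.7 ± 24.9 TPM. Neighbours in this order differed by less than the larger of their SDs. Among beta genes, the catalytic subunits were PRE3 (YJL001W), with the caspase-like site, at 122 ± 27.4 TPM, PRE2 (YPR103W), with the chymotrypsin-like site, at 120 ± 13.8 TPM and PUP1 (YOR157C), with the trypsin-like site, at 87.7 ± 8.27 TPM. The remaining beta genes, PRE4 (YFR050C), PRE7 (YBL041W) and PRE1, had 113 ± 27.5, 84.1 ± 20.1 and 64 ± 25.5 TPM.

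In the base, the scaffold genes RPN2 (YIL075C) and RPN1 (YHR027C) had 87.0 ± 22.5 and 55.6 ± 15.2 TPM, and the ubiquitin receptor genes RPN10 (YHR200W) and RPN13 (YLR421C) had 127 ± 26.5 and 51.2 ± 17.6 TPM. The 6 ATPase genes ran from RPT1 (YKL145W) with 76.4 ± 18.9 TPM through RPT3 (YDR394W) with 67.4 ± 12.8, RPT5 (YOR117W) with 62.0 ± 16.8, RPT6 (YGL048C) with 55.9 ± 16.6 and RPT2 (YDL007W) with 41.7 ± 15.9 to RPT4 (YOR259C) with 36.7 ± 9.97 TPM. Each ATPase gene lay within 1 SD of its neighbours in that order. In the lid, RPN6 (YDL097C) had 72.2 ± 14.8 TPM and RPN11 (YFR004W), the gene of the deubiquitinase, had 62.5 ± 10.04 TPM. RPN12 (YFR052W) had 55.0 ± 21.6, RPN8 (YOR261C) 43.9 ± 19.2, RPN3 (YER021W) 39.1 ± 18.4, RPN7 (YPR108W) 34.8 ± 14.6 and RPN5 (YDL147W) 33.6 ± 17.6 TPM. SDs over all 10 libraries hold the differences between groups as well as between replicates.

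The spread of levels among the 32 subunit genes differed from group to group. The SD of log2 TPM among them was 0.503 and 0.498 in [ESI+] libraries, 0.685 and 0.736 in hos2 deletion libraries, 0.820 and 0.769 in set3 deletion libraries, 0.878 and 1.21 in snt1 deletion libraries, and 0.796 and 1.09 in naive libraries. Both [ESI+] libraries were below all others, and the second libraries of the snt1 deletion and of naive cells were the highest. The spread over all genes was not measured, so a narrowing particular to the subunit genes is not shown. The highest subunit was 4.83 and 5.56 times the lowest in [ESI+] libraries, against 10.3 and 29.6 times in naive libraries. The ratio of RPN9 to RPN10 TPM was 0.633 and 0.648 in [ESI+] libraries and 0.182 and 0.0522 in naive libraries. This pair was chosen after the values were seen. RPN9 has the lowest coding GC content of the 33 genes and RPN10 the highest. Log2 differences between [ESI+] and naive cells fell with GC content over the 32 subunit genes (r = -0.92) and over 5788 genes (r = -0.68).

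**Figure D2:**
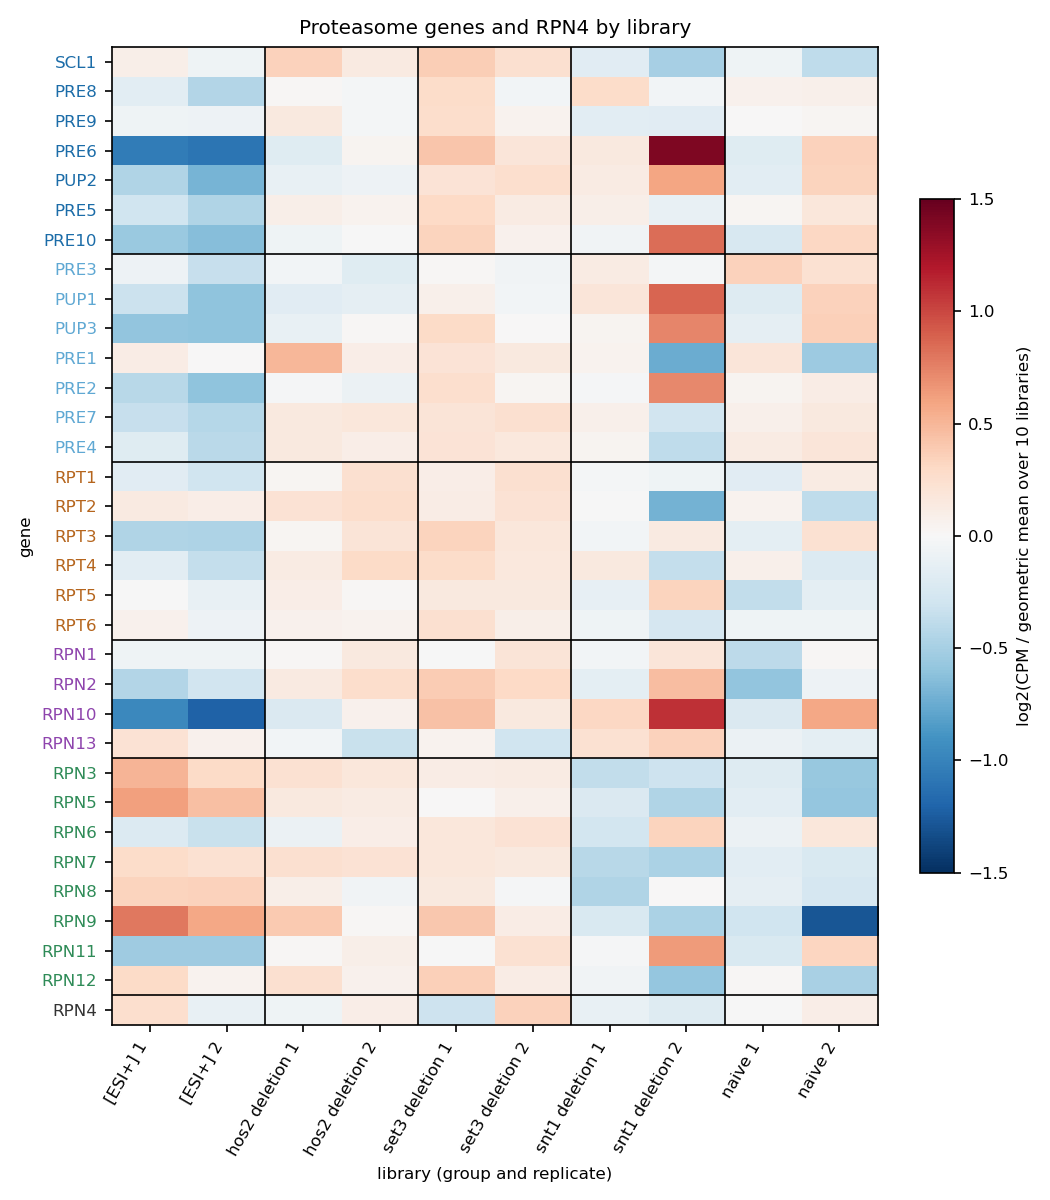
Levels of the 33 genes in each library. Rows are genes ordered by role (alpha ring, beta ring, RPT, RPN of the base, RPN of the lid, RPN4), columns are libraries, and colour is log2 of CPM over the gene's geometric mean in the 10 libraries. On this CPM scale PRE6 and RPN10 are low, and RPN9, RPN5 and RPN3 are high, in both [ESI+] libraries; PRE6 and RPN10 are high in the second snt1 deletion library. The contrasts in [ESI+] cells followed coding GC content.

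RPN4 itself passed the test in no comparison. CPM, counts-per-million with TMM library sizes, were 28.8 and 22.5 in [ESI+], 23.2 and 25.9 in hos2 deletion cells, 19.6 and 30.9 in set3 deletion cells, 22.3 and 21.2 in snt1 deletion cells, and 24.2 and 25.9 in naive cells. Both snt1 deletion libraries were below both naive libraries, and the other 3 groups overlapped with naive cells. Log2 differences from naive cells were 0.04 ± 0.23 in [ESI+], -0.03 ± 0.23 in the hos2 deletion, 0.00 ± 0.23 in the set3 deletion and -0.20 ± 0.23 in the snt1 deletion (± SE, n = 2 a group). None passed edgeR's quasi-likelihood test (Benjamini-Hochberg adjusted p = 0.92, 0.96, 1.00 and 0.83, in that order of groups); with 2 libraries a group this does not show that the levels were equal. With the trend on GC content removed, the difference between [ESI+] and naive cells was -0.32 ± 0.22 (adjusted p = 0.54).

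The first comparison asked which of these genes differed in [ESI+] cells from naive cells. Of 33 genes, 5 passed edgeR's test at an adjusted p of 0.05, against 28.3% of all 6390 genes tested. By this test the share of members called (15.2%) was below the background. Those higher in [ESI+] were the lid genes RPN9, RPN5 and RPN3, and those lower were RPN10, a ubiquitin receptor of the base, and PRE6, of the alpha ring. The differences followed the GC content of the coding sequences, and none of the 5 passed once the trend of fold change on GC content was removed from all genes. In bulk RNA, fewer cells of a kind and less RNA per cell cannot be told apart.

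RPN9 had 57.3 and 49.8 CPM in [ESI+], 43.4 and 33.6 in hos2 deletion cells, 43.8 and 35.8 in set3 deletion cells, 28.3 and 23.8 in snt1 deletion cells, and 27.1 and 13.6 in naive cells. Both [ESI+] libraries lay above all others, and the second naive library was the lowest of the 10. RPN9 rose by 1.38 ± 0.29 (log2, SE) in [ESI+] over naive cells, a 2.61-fold difference (adjusted p = 0.0067). RPN5 had 73.7 and 65.8 CPM in [ESI+] and 43.4 and 32.2 CPM in naive cells, and rose by 0.88 ± 0.20 (adjusted p = 0.0091). RPN3 had 97.7 and 83.2 CPM in [ESI+] and 59.9 and 46.2 CPM in naive cells, and rose by 0.77 ± 0.20 (adjusted p = 0.016). The groups did not overlap for any of these 3 lid genes.

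RPN10 had 57.2 and 48.3 CPM in [ESI+], 96.6 and 117 in hos2 deletion cells, 152 and 124 in set3 deletion cells, 139 and 240 in snt1 deletion cells, and 96.2 and 167 in naive cells. Both [ESI+] libraries lay below all others, and the libraries of naive cells were far apart. RPN10 fell by 1.32 ± 0.32 (log2, SE) in [ESI+] relative to naive cells (adjusted p = 0.012). PRE6 had 59.5 and 57.6 CPM in [ESI+], 109 and 127 in hos2 deletion cells, 165 and 140 in set3 deletion cells, 136 and 326 in snt1 deletion cells, and 109 and 157 in naive cells. The order of the groups was like that of RPN10, with the second snt1 deletion library at the top. PRE6 fell by 1.18 ± 0.35 in [ESI+] relative to naive cells (adjusted p = 0.028). This call was lost with silent-gene reads subtracted and with the length trend removed.

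Leaving out single libraries moved the number of members called. It was 0 without naive replicate 2, 8 without naive replicate 1, 2 without [ESI+] replicate 1 and 1 without [ESI+] replicate 2. RPN9 passed in 3 of these 4 fits, RPN10 in 2, and RPN5, RPN3 and PRE6 in 1 each. The share of all genes called with a library left out is not given, so those counts are not read as particular to the members. DESeq2 called 13 of the members, against 32.1% of all genes.

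**Figure D3:**
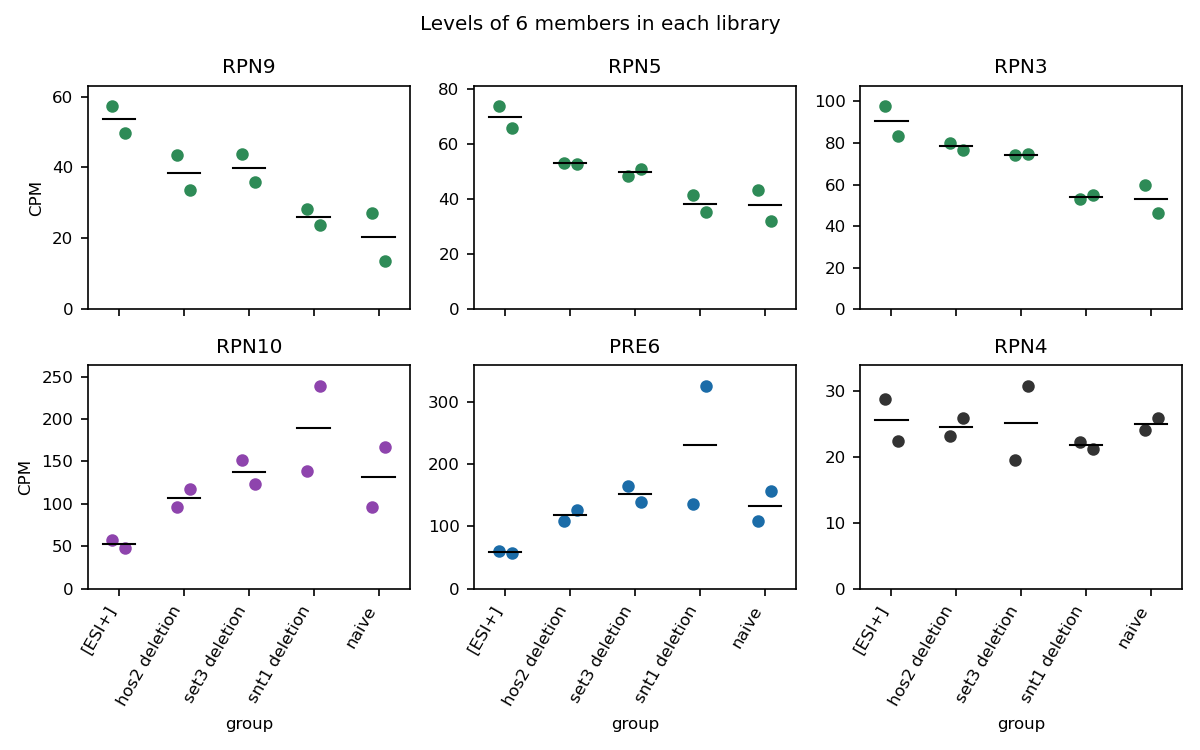
CPM of RPN9, RPN5, RPN3, RPN10, PRE6 and RPN4 in each library. Points are libraries (2 a group), horizontal lines are group means, and the y axes start at 0. RPN9, RPN5 and RPN3 are highest and RPN10 and PRE6 lowest in [ESI+] cells, differences that followed coding GC content, while RPN4 lies between 19.6 and 30.9 CPM throughout.

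The other 28 members did not pass (adjusted p from 0.052 to 0.92). Both [ESI+] libraries were above both naive libraries for 10 of the 33 genes (39.7% of all genes) and below them for 16 (32.5% of all genes). The median log2 difference was -0.49 over 14 core particle genes, -0.07 over 6 RPT genes, 0.03 over the 4 RPN genes of the base and 0.49 over the 8 RPN genes of the lid, against 0.09 over all genes. These roles differ in GC content as well: the median was 41.9% for the core particle, 41.1% for RPT genes, 39.4% for the RPN genes of the base and 37.1% for the lid. Lid genes that did not pass included RPN8 (0.53 ± 0.20) and RPN7 (0.44 ± 0.17), and RPN11 at -0.60 ± 0.25. RPN11 had a GC content of 41.0%, against 35.3% for RPN8 and 37.7% for RPN7. Members with a GC content like that of RPN11 had values of both signs. RPT5 (41.1%) was at 0.20 ± 0.21, RPT4 (41.1%) at -0.20 ± 0.22 and PRE3 (41.0%) at -0.49 ± 0.20. Whether GC content accounts for the value of RPN11 was not tested.

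The catalytic subunits did not pass in this comparison. PRE2 had 87.3 and 76.5 CPM in [ESI+], 115 and 109 in hos2 deletion cells, 139 and 119 in set3 deletion cells, 115 and 192 in snt1 deletion cells, and 119 and 126 in naive cells. PRE3 had 77.2 and 63.9 CPM in [ESI+], 79.0 and 71.7 in hos2 deletion cells, 82.1 and 78.5 in set3 deletion cells, 88.7 and 79.4 in snt1 deletion cells, and 103 and 94.9 in naive cells. PUP1 had 60.9 and 50.1 CPM in [ESI+], 67.6 and 69.7 in hos2 deletion cells, 80.2 and 74.0 in set3 deletion cells, 86.5 and 140 in snt1 deletion cells, and 67.0 and 96.9 in naive cells. For each of the 3, both [ESI+] libraries were below both naive libraries. The log2 differences in [ESI+] from naive cells were -0.58 ± 0.25 for PRE2 (adjusted p = 0.096), -0.49 ± 0.20 for PRE3 (adjusted p = 0.079) and -0.56 ± 0.26 for PUP1 (adjusted p = 0.12).

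Over the 32 subunit genes, the log2 difference between [ESI+] and naive cells fell with GC content (r = -0.92 across genes), as it did over 5788 genes with an R64 coding sequence (r = -0.68). RPN9 has the lowest GC content of the 33 genes (33.7%) and RPN10 the highest (47.5%); RPN5, RPN3 and PRE6 have 35.9%, 37.0% and 45.8%. The first 150 coding bases of the genes at the 2 ends show the contrast, from the R64 reference of RefSeq with G and C in capitals, 51 of 150 bases in RPN9 and 65 of 150 in RPN10.
RPN9, chrIV:1322205-1322354, strand +: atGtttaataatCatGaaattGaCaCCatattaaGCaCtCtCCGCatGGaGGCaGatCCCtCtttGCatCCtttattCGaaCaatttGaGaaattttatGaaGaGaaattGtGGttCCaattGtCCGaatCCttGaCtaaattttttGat
RPN10, chrVIII:499079-499228, strand +: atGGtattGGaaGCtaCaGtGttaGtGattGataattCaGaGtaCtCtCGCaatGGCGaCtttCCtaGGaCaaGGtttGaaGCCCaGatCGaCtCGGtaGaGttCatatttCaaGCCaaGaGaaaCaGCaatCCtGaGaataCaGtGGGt

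With the trend on GC content fitted per library over all genes and removed, 17 of 5786 genes passed in [ESI+] against naive cells (0.294%), and none of the 33 members did by edgeR's test, 3 of them with an unadjusted p under 0.05. This alternative was added after the data were seen. RPN9 was then at 0.04 ± 0.22 (log2, SE), RPN5 at -0.021 ± 0.17, RPN3 at 0.11 ± 0.18, RPN10 at -0.07 ± 0.20 and PRE6 at -0.19 ± 0.24. The median over the 32 subunit genes was -0.02. The members then ran from -0.53 for RPN8 to 0.44 for RPT5. After the removal, r with GC content was 0.26 over the 32 subunit genes and -0.0026 over the 5786 genes. Whether the trend arose in the cells or in the libraries was not tested.

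**Figure D4:**
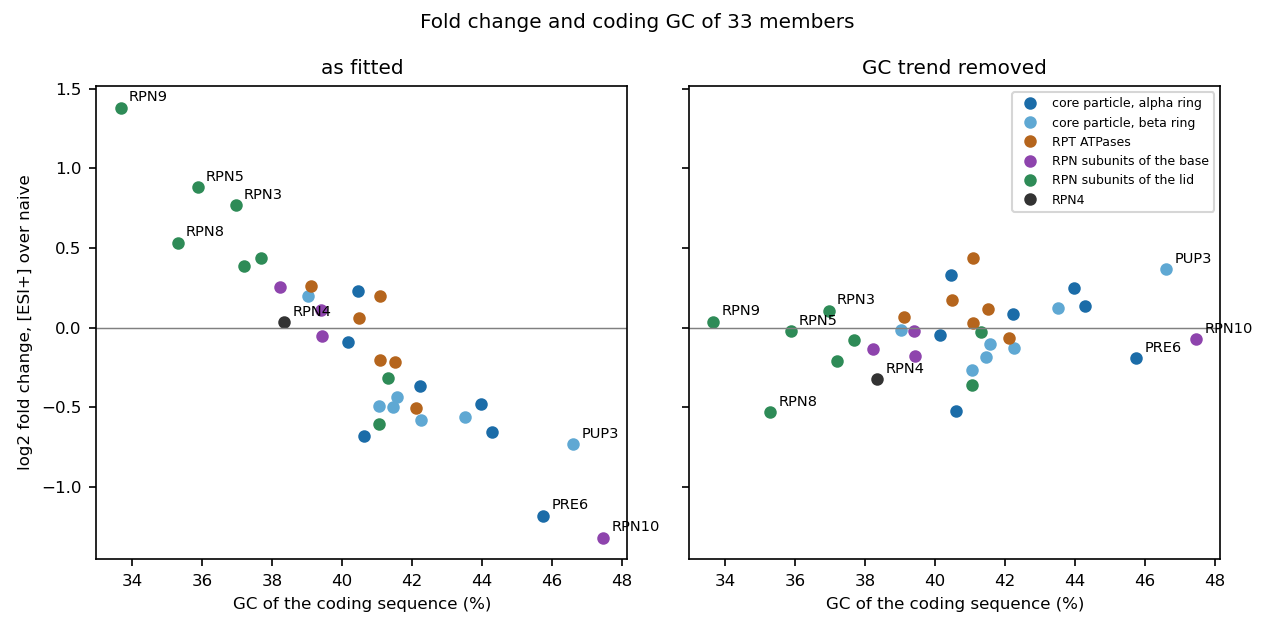
Log2 fold change in [ESI+] over naive cells (y axis) against the GC content of the coding sequence in percent (x axis) for the 33 genes, coloured by role. Left, as fitted: the points fall from RPN9 at 1.38 to RPN10 at -1.32. Right, with the trend on GC content removed over all genes: the points lie between -0.53 and 0.44, with r of 0.26 over the 32 subunit genes.

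The direction of the complex as a whole turned with the scale. Summed over the 32 subunit genes, TPM was 3092 ± 88.6 in [ESI+], 2939 ± 97.8 in the hos2 deletion, 2788 ± 386 in the set3 deletion, 2105 ± 1.63 in the snt1 deletion and 2276 ± 285 in naive cells (SD, n = 2 each). Summed CPM ran the other way, at 2548 and 2382 in [ESI+] libraries against 2641 and 3086 in naive libraries. The median log2 difference of subunit genes between [ESI+] and naive cells was -0.21 with TMM sizes and 0.58 with library sizes from the ERCC spike-ins, which moved the median of all genes to 0.80. ERCC RNAs made up 0.946% and 5.19% of estimated counts in the [ESI+] libraries, and 1.43% and 3.31% in naive libraries. The spike-in scale thus differed between replicates of a group. No direction is therefore given for the complex.

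In the 3 deletions, none of the 33 members passed edgeR's test against naive cells, beside 7.65% of all genes in the hos2 deletion, 2.5% in the set3 deletion and 0.454% in the snt1 deletion. DESeq2 called 1, 1 and 0 members, beside 11.7%, 6.06% and 1.55% of all genes. At an unadjusted p under 0.05 in edgeR's test there were 4, 4 and 1 members, for which no share of all genes is given. In the hos2 deletion the 4 were lid genes: RPN9 at 0.91 ± 0.29 (log2, SE), RPN3 at 0.56 ± 0.20, RPN5 at 0.48 ± 0.20 and RPN7 at 0.42 ± 0.17. In the set3 deletion they were RPN9 at 0.96 ± 0.29, RPN2 at 0.65 ± 0.26, SCL1 at 0.52 ± 0.21 and RPN3 at 0.48 ± 0.20. In the snt1 deletion it was PRE6 at 0.80 ± 0.35, whose libraries were 136 and 326 CPM. PRE3 had the lowest value of the hos2 deletion (-0.40 ± 0.20) and of the set3 deletion (-0.30 ± 0.20), and PRE4 of the snt1 deletion (-0.31). PRE2 was at -0.13 ± 0.25 in the hos2 deletion, 0.08 ± 0.25 in the set3 deletion and 0.33 ± 0.25 in the snt1 deletion. PRE3 in the snt1 deletion was at -0.24 ± 0.20. PUP1 was at -0.25 ± 0.26, -0.09 ± 0.26 and 0.47 ± 0.26 in the hos2, set3 and snt1 deletions.

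The subunit medians were 0.06 in the hos2 deletion, 0.19 in the set3 deletion and 0.02 in the snt1 deletion, beside 0.03, 0.00 and 0.00 over all genes. With spike-in sizes the subunit medians were 0.35, -0.28 and -0.62 in the hos2, set3 and snt1 deletions, and the medians of all genes were 0.25, -0.50 and -0.66. Fold change moved with GC content over the subunit genes of hos2 deletion cells (r = -0.76) and the set3 deletion (r = -0.61). The sign was opposite in the snt1 deletion (r = 0.35). Over 5788 genes with an R64 coding sequence r was -0.48, -0.33 and 0.096 in the hos2, set3 and snt1 deletions. With the trend removed, none of the members passed in any of the 3 deletions, and 4, 9 and 2 had an unadjusted p under 0.05, in the order hos2, set3, snt1. The shares of all genes called at the adjusted threshold were then 4.42%, 2.51% and 0.881%. After the removal, r with GC content over the 32 subunit genes was 0.34, 0.29 and 0.22, in the same order. Shares at the unadjusted threshold are not given, so counts at that threshold are not read as an excess. A test of whether the 3 deletions differed from one another called none of the 33 (0.939% of all genes), with 5 at an unadjusted p under 0.05 and 1 called by DESeq2 (8.06% of all genes). Without snt1 deletion replicate 1 that test called 4.

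[ESI+] cells were also set against each deletion. Against the hos2 deletion no member passed edgeR's test (7.53% of all genes did), 6 had an unadjusted p under 0.05 and DESeq2 called 4 (13.7% of all genes). With the GC trend removed none passed either (4.63% of all genes). The ends were RPN10 at -1.02 ± 0.31 and RPN9 at 0.47. PRE2, PRE3 and PUP1 were at -0.45 ± 0.25, -0.10 ± 0.20 and -0.31 ± 0.26. Against the set3 deletion 4 members fell and none rose, beside 16.2% of all genes called, 8.22% higher and 7.93% lower. They were RPN10 (-1.39 ± 0.32, adjusted p = 0.018), PRE6 (-1.38 ± 0.35, adjusted p = 0.026), RPT3 (-0.71 ± 0.21, adjusted p = 0.039) and PUP2 (-0.80 ± 0.24, adjusted p = 0.041). RPT3 had 75.6 and 74.8 CPM in [ESI+] and 130 and 116 CPM in the set3 deletion, and PUP2 had 75.5 and 63.9 CPM in [ESI+] and 120 and 124 CPM in the set3 deletion. The groups did not overlap for either gene. DESeq2 called 11 members (23% of all genes). RPN5 had the highest value, at 0.49 ± 0.20. PRE2, PRE3 and PUP1 were at -0.66 ± 0.25, -0.19 ± 0.20 and -0.47 ± 0.26. The 4 calls were lost without any single library of the comparison, [ESI+] replicate 1, [ESI+] replicate 2, set3 deletion replicate 1 or set3 deletion replicate 2 (0 calls each), and with the GC trend removed (0 calls, beside 4.72% of all genes). With spike-in sizes none passed, and PUP2 and RPT3 were at 0.49 and 0.53 on a scale where the median of all genes was 1.28, against 0.07 with TMM sizes.

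Against the snt1 deletion 13 members passed, 39.4% of the 33 beside 37% of all genes (18.7% higher and 18.3% lower). Of these, 5 lid genes rose: RPN5 (0.87 ± 0.20), RPN7 (0.70 ± 0.17), RPN3 (0.74 ± 0.20), RPN9 (1.04 ± 0.29) and RPN8 (0.55 ± 0.20), with adjusted p between 0.0072 for RPN5 and 0.049 for RPN8. The call of RPN8 was lost with DESeq2, with relative-log-expression size factors, with no filter, among annotated genes only and in a fit of the pair alone, and without [ESI+] replicate 1, [ESI+] replicate 2 or snt1 deletion replicate 1. The 8 that fell were PRE6 (-1.98 ± 0.36), RPN10 (-1.84 ± 0.32), PUP2 (-0.94 ± 0.24), PUP1 (-1.03 ± 0.26), PUP3 (-1.02 ± 0.27), PRE2 (-0.91 ± 0.25), PRE10 (-1.06 ± 0.29) and RPN11 (-0.88 ± 0.25). Their adjusted p lay between 0.0020 for RPN10 and 0.018 for RPN11. PRE3 was at -0.25 ± 0.20 and did not pass. DESeq2 called 16 members (39.6% of all genes). The second snt1 deletion library was high for several that fell: PRE10 had 89.1 and 83.9 CPM in [ESI+] against 126 and 234 CPM in the snt1 deletion, and PUP3 had 95.7 and 94.7 CPM in [ESI+] against 148 and 239 CPM. RPN7, which rose, had 59.9 and 58.1 CPM in [ESI+] against 37.2 and 35.7 CPM in the snt1 deletion.

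The number of calls against the snt1 deletion was 4 without [ESI+] replicate 1, 3 without [ESI+] replicate 2, 18 without snt1 deletion replicate 1 and 8 without snt1 deletion replicate 2, and PRE6 and RPN10 passed in all 4 fits. No share of all genes is given beside these counts with a library left out. With spike-in sizes none passed. Those sizes moved the median of all genes to 1.48, against 0.13 with TMM sizes, and 6 of the 8 genes that fell had a positive value on that scale (PUP2, PRE10, PUP1, PUP3, PRE2 and RPN11), each below the median of all genes. With the GC trend removed, PRE6 (-0.87 ± 0.24, adjusted p = 0.045) and PUP2 (-0.80 ± 0.20, adjusted p = 0.036) still fell and no other member passed, beside 8.05% of all genes. RPN9, RPN8 and RPN5 then had values of -0.39, -0.54 and -0.07, and PUP3 of 0.17. Fold change and GC content had r of -0.87, -0.89 and -0.88 over the subunit genes in [ESI+] against the hos2, set3 and snt1 deletions. Over 5788 genes with an R64 coding sequence r was -0.38, -0.47 and -0.64, in the same order.

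Other genes of the pathway were read from 4 lists and from SEM1, a small lid subunit not among the members. In [ESI+] against naive cells, 0 of 9 assembly chaperones rose and 1 fell, 5 of 11 associated proteins rose and 3 fell, 1 of 15 genes of the ubiquitin and Cdc48 pathway rose and 0 fell, and 3 of 7 regulators of RPN4 rose and 0 fell. The background was 13.9% of all genes higher and 14.5% lower. UMP1, a chaperone that is enclosed in and degraded by the new core particle, had 25.2 and 23.9 CPM in [ESI+] and 63.1 and 61.0 CPM in naive cells, and fell by 1.34 ± 0.19 (adjusted p = 0.0012). ECM29, which tethers the core to the regulatory particle, had 48.1 and 57 CPM in [ESI+] and 22.1 and 20.8 CPM in naive cells, and rose by 1.29 ± 0.20 (adjusted p = 0.0015). The groups did not overlap for either gene.

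DSK2, a shuttle factor that brings ubiquitinated proteins to the proteasome, fell by 1.86 ± 0.30 in [ESI+] relative to naive cells (adjusted p = 0.0019). FUB1, related to a mammalian proteasome inhibitor, fell by 1.19 ± 0.22 (adjusted p = 0.0039), a call lost without [ESI+] replicate 2. UBR2, a ubiquitin ligase that marks Rpn4 for degradation, had 14.5 and 21.1 CPM in [ESI+] against 7.68 and 7.24 CPM in naive cells and rose by 1.25 ± 0.21 (adjusted p = 0.0024). The calls of ECM29 and UBR2 were lost with the length trend removed, and those of UMP1, DSK2, FUB1, ECM29 and UBR2 with spike-in sizes. GC content was 44.3% for UMP1, 51.4% for DSK2, 48.1% for FUB1, 37.8% for ECM29 and 35.5% for UBR2. With the GC trend removed, none of the 43 listed genes passed edgeR's test in [ESI+] against naive cells. An unadjusted p under 0.05 was reached by 6 of them. ECM29 was at 0.81 ± 0.19 (adjusted p = 0.11), UMP1 at -0.58 ± 0.21 (adjusted p = 0.24), UBR2 at 0.24, DSK2 at -0.17 and FUB1 at 0.07. In the main fit against the hos2, set3 and snt1 deletions, in that order, 0, 1 and 1 of 9 assembly chaperones rose and 1, 1 and 1 fell. Of 11 associated proteins 1, 2 and 4 rose and 0, 1 and 3 fell. Of 15 ubiquitin and Cdc48 genes 0, 0 and 2 rose and 0, 0 and 1 fell. Of 7 regulators of RPN4 1, 1 and 3 rose and 0, 1 and 0 fell. The share of all genes called was 7.53%, 16.2% and 37%. With the GC trend removed, 1, 3 and 1 of the 43 passed against these deletions, beside 4.63%, 4.72% and 8.05% of all genes. The lowest adjusted p were those of UMP1 (0.033), HSF1 (0.032) and NPL4 (0.029), in that order of deletions.

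Among regulators of RPN4, MUB1, the partner of Ubr2, had 13.0 and 13.3 CPM in [ESI+], 13.7 and 13.2 CPM in the hos2 deletion, 13.7 and 14.8 CPM in the set3 deletion, and 8.52 and 6.23 CPM in naive cells. MUB1 rose by 0.82 ± 0.21 in [ESI+] (adjusted p = 0.015), by 0.85 ± 0.21 with HOS2 deleted (adjusted p = 0.033) and by 0.93 ± 0.21 with SET3 deleted (adjusted p = 0.046), beside 2.96% and 0.579% of all genes that rose in the 2 deletions. YAP1, a stress-response activator that acts on RPN4, rose by 0.71 ± 0.18 in the hos2 deletion (adjusted p = 0.039), and was at 0.50 ± 0.18 in [ESI+] (adjusted p = 0.057) and 0.68 ± 0.18 in the set3 deletion (adjusted p = 0.078). The call of MUB1 in [ESI+] was lost without [ESI+] replicate 1, [ESI+] replicate 2 or naive replicate 2, with spike-in sizes and with the length trend removed, and that in the hos2 deletion was lost without hos2 deletion replicate 1, without hos2 deletion replicate 2 and without naive replicate 2. The calls of YAP1 in the hos2 deletion and MUB1 in the set3 deletion were lost without any 1 of the 4 libraries compared: replicate 1 or 2 of the deletion, or naive replicate 1 or 2. The calls of MUB1 and YAP1 in the deletions were lost with spike-in sizes and with the length trend removed as well. That of MUB1 in the set3 deletion was lost with a filter at 10 CPM too. With the GC trend removed, YAP1 stood at 0.54 in the hos2 deletion, and MUB1 at 0.53 and 0.74 in the hos2 and set3 deletions. None of these passed edgeR's test (adjusted p between 0.064 and 0.14). MUB1 in [ESI+] was then at 0.0020 (adjusted p = 0.998).

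PDR3 and PDR1, drug-resistance activators of RPN4, were at 0.63 ± 0.19 (adjusted p = 0.029) and 0.43 ± 0.22 (adjusted p = 0.15) in [ESI+] over naive cells. PDR3 was at -0.24 ± 0.18 with the GC trend removed. Its call was lost too with spike-in sizes, with silent-gene reads subtracted and with the length trend removed. The call of PDR3 was lost without any 1 of the 4 libraries, [ESI+] replicate 1, [ESI+] replicate 2, naive replicate 1 or naive replicate 2 (adjusted p from 0.062 to 0.21). HSF1, the heat shock activator, was at -0.27 ± 0.20 in [ESI+], 0.26 ± 0.20 in the hos2 deletion, 0.49 ± 0.20 in the set3 deletion and 0.24 ± 0.20 in the snt1 deletion, and passed in none of these. SEM1 was at -0.48 ± 0.36 in [ESI+] and did not pass. In the snt1 deletion no gene of the 4 lists passed. Of the promoters, the element GGTGGCAAA stood upstream of 0 of 9 assembly chaperones, 1 of 11 associated proteins (ECM29), 3 of 15 ubiquitin and Cdc48 genes (UBI4, UBA1 and CDC48) and 1 of 7 regulators of RPN4 (YAP1).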

How the data were processed

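RNA-seq of polyadenylated RNA was measured in 10 libraries. The deposited tables give, per the file headers, target length, estimated counts and TPM for each target; kallisto 0.44 and build R64 are named in the submitters' processing notes. Expected counts are estimated reads per target without normalization, as the authors deposited them, and TPM values in the deposited tables are scaled by length over every target, with ribosomal RNA and spike-ins among them. Per the labels' protocols, cDNA was primed on the poly(A) tail on beads, sheared and made into libraries with a DNA kit; whether strand was kept is not given in the sources used here. No member overlaps another annotated gene.

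Expected counts, which were whole for the 33 members in all libraries (tolerance 0.001), were rounded and ERCC RNAs set aside. Genes were kept by filterByExpr over the 5 groups. edgeR 4.0.16 in R 4.3.3 was fitted over all 10 libraries with TMM sizes, 1 coefficient per group and a robust quasi-likelihood fit. Tests were two-sided, Benjamini-Hochberg adjusted over 6390 genes, with a threshold of 0.05; the code was tested on simulated data. SE is the log2 fold change over the square root of F. Counts at an unadjusted p under 0.05 have no share of all genes beside them and are descriptions only. Alternatives were DESeq2 1.42.0, edgeR with relative-log-expression size factors, spike-in sizes, a fit of the groups compared, a replicate block, a filter at 10 CPM, no filter, subtraction of silent-gene reads, a loess trend on length, and single libraries left out. Added after the data were seen were annotated genes only, a trend on coding GC (loess, span 0.5, centred per library), and both trends. Promoters and GC content came from the R64 RefSeq genome. Target length equalled R64 coding length for 5984 of 5994 targets, the members included.

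The members and lists were chosen with earlier results of these data known. The rule for named genes was RPN4 and the catalytic subunits always, members past the threshold by smallest p, the highest and lowest member of each comparison, up to 5 listed genes per comparison, and YAP1, PDR1, PDR3 and HSF1. Listed genes were named for comparisons with naive cells. Against the deletions only the listed gene of lowest adjusted p with the GC trend removed was named.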

Additional observations from a re-analysis of the deposited data

How the results depend on the processing

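Over the 8 tests, the count of members called moved in 42 alternative fits and stayed the same or close in 88, fits with a library left out included. Shares of all genes called are given above only for the main fit, DESeq2 and the fit with the GC trend removed. Counts under other settings, or with a library left out, are thus not read as particular to these genes. For [ESI+] against naive cells the 5 calls became 13 with DESeq2, 0 with spike-in sizes, 13 in a fit of these groups alone, and 0 with the GC trend or both trends removed. For the hos2 deletion 0 became 1 with DESeq2; for the set3 deletion 0 became 1 with DESeq2 and 1 in a fit of the pair alone. [ESI+] against the hos2 deletion had 0 calls, 4 with DESeq2 and 12 in the pair alone. [ESI+] against the set3 deletion had 4 calls, 11 with DESeq2, 0 with spike-in sizes, 16 in the pair alone, 2 with silent-gene reads subtracted, 0 with the GC trend removed and 1 with both trends removed. [ESI+] against the snt1 deletion had 13 calls, 0 with spike-in sizes, 6 in the pair alone, 2 with the GC trend removed and 3 with both trends removed. The test among the 3 deletions had 0, and 1 with DESeq2 or a 10 CPM filter. Same-numbered libraries did not deviate together in every pair of groups (correlations 0.0023 to 0.53 over 3716 genes), so the numbers were not taken as pairs; with the replicate block the counts were 9 for [ESI+], 1 for the hos2 and 1 for the set3 deletion against naive cells, and 2 and 10 for [ESI+] against the hos2 and set3 deletions. Leaving out single libraries gave 0 to 8 calls for [ESI+] against naive cells, 0 to 1 for each deletion, 0 to 0 for [ESI+] against the hos2 and against the set3 deletion, 3 to 18 against the snt1 deletion, and 0 to 4 for the test among deletions.

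Spike-in sizes moved all genes together, with all-gene medians of 1.28 in [ESI+] against the set3 deletion and 1.48 against the snt1 deletion, and the signs of these named genes changed with that shift: in [ESI+] against the set3 deletion, PUP2 was 0.49 and RPT3 0.53; against the snt1 deletion, PUP2 was 0.56, PRE10 0.44, PUP1 0.51, PUP3 0.43, PRE2 0.61 and RPN11 0.57. With the GC trend and with both trends removed, RPN5 was -0.021 and -0.051, FUB1 was 0.066 and 0.13 and PDR3 was -0.24 and -0.36 in [ESI+] against naive cells, and UBR2 was -0.028 and MUB1 -0.090 with both removed. Against the snt1 deletion the values were 0.17 and 0.22 for PUP3, -0.066 and -0.099 for RPN5, -0.54 and -0.57 for RPN8, and -0.39 and -0.42 for RPN9. The 2 libraries a group and the spread of the naive and snt1 deletion replicates limit the precision. The uneven ERCC share of the [ESI+] libraries (0.946% and 5.19% of estimated counts) limits the fits with spike-in sizes. The cause of the GC trend was not tested.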
